A study of Homo sapiens with 4 samples.

Results

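The mitochondrial ribosomal protein genes comprise the transcripts whose symbols start with MRPL or MRPS followed by a number, and 78 of the 20332 genes in the count table met this rule (49 MRPL and 29 MRPS). The members were chosen by gene symbol and not by any measured value. The family was, however, put forward with results of the same LN-35 and LNCaP contrast already known, so the counts of called members below are a description of these libraries and support nothing further. The transcriptomes compared were those of LNCaP, an androgen-responsive line of human prostate cancer labelled WT, and of its subline LN-35, labelled as resistance cells treated with enzalutamide, an antagonist of the androgen receptor. Each group held 2 libraries. The LNCaP libraries summed to 15333722 and 13598458 estimated counts and the LN-35 libraries to 12225173 and 12892059. By the labels, LNCaP and LN-35 grew in the same serum-containing RPMI-1640 medium, but by the study's methods the resistant cells were obtained in charcoal-stripped serum under stepwise increases of the drug. LN-35 therefore differs from its parent in selection, drug and possibly serum, and these cannot be told apart. The sources used here do not state whether enzalutamide was present at harvest or whether LN-35 is a clone. The study's methods state independent replication for all experiments in more replicates than the libraries analysed here, without naming RNA-seq, and the labels do not say whether replicate libraries were grown separately. Each p-value is therefore set against a spread that may be purely technical.

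The mitochondrial ribosome, or mitoribosome, translates the few proteins encoded by mitochondrial DNA, all of them core subunits of the respiratory chain complexes or of ATP synthase. Its ribosomal RNAs are made in the organelle, but every protein of its large subunit (MRPL, with a few exceptions in naming) and small subunit (MRPS) is encoded in the nucleus, made in the cytosol and imported. Many of these proteins descend from bacterial ribosomal proteins, and others arose after the organelle was acquired. Prostate epithelium is known for an unusual mitochondrial metabolism in which citrate is secreted.

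Of the 78 members, 77 are mitoribosome subunits. The exception is *MRPS36*, also named KGD4, which belongs to the 2-oxoglutarate dehydrogenase complex. Of the subunits, 51 are in the large subunit, including *MRPS30* and *MRPS18A* despite their names, and 26 are in the small subunit. They were classed by protein name. The names of 46 (starting with u or b) are shared with a bacterial homolog, and those of 31 (starting with m) are specific to mitochondria. The class of names is not strictly one of origin, since *MRPS18A* (mL66) and *MRPS18B* (mS40) are paralogs of bacterial protein S18. The genes lay on 21 chromosomes. All 78 passed the filter on low counts, so no member was left untested.

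The promoters are shown because ETS and YY1 motif letters, which the rule did not use, stood in members' windows more often than in windows at large. RefSeq gave a window from 250 bases before to 50 bases after the annotated start for 69 members on GRCh38.p14, and 9 members had no entry. Motifs of 3 factors named in textbooks for nuclear genes of mitochondrial function were searched on both strands: CCGGAAG for the ETS family (to which GABPA, also called NRF-2, belongs), AAGATGGCG for YY1, and GCGCATGCG for NRF1. The windows of *MRPL22* and *MRPL58*, which were among the largest falls in LN-35, of *MRPS10* and *MRPL48*, which were called higher, and of *MRPL46*, which lies head to head with *MRPS11*, are printed 5′ to 3′ on the gene's own strand, with matches in capitals (CTTCCGG is the ETS match read on the other strand).
*MRPL22*, chr5:154940823-154941122, plus strand: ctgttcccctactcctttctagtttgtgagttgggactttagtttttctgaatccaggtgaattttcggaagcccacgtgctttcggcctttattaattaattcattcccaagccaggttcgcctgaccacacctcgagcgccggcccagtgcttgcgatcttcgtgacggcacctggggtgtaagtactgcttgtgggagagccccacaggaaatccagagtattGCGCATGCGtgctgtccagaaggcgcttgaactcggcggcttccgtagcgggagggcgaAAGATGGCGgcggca
*MRPL58*, chr17:75012420-75012719, plus strand: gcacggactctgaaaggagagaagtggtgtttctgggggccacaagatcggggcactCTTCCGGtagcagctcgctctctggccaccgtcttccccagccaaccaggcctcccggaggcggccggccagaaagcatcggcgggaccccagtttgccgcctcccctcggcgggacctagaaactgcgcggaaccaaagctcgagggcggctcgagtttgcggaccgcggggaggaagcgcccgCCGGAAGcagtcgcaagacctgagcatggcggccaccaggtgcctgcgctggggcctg
*MRPS10*, chr6:42217812-42218111, minus strand: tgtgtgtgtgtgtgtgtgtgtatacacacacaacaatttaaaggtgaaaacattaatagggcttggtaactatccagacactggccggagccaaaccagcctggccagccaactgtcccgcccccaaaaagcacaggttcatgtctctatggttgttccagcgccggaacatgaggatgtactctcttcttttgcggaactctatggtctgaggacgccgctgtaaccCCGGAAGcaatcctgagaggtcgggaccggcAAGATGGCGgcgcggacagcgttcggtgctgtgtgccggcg
*MRPL48*, chr11:73787624-73787923, plus strand: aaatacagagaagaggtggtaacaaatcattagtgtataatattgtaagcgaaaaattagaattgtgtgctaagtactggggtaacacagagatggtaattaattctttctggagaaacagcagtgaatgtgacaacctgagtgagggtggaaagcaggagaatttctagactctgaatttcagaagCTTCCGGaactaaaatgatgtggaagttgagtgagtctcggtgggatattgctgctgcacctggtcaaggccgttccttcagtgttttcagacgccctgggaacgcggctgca
*MRPL46*, chr15:88467339-88467638, minus strand: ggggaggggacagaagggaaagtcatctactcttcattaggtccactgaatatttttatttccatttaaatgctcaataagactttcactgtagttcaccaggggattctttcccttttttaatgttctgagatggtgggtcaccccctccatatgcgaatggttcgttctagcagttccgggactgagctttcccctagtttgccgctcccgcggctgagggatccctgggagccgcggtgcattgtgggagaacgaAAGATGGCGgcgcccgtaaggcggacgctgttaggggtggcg
The *MRPL22* window held 1 NRF1 and 1 YY1 match, the *MRPL58* window held 2 ETS matches, the *MRPS10* window held 1 ETS and 1 YY1 match, the *MRPL48* window held 1 ETS match and the *MRPL46* window held 1 YY1 match. The windows of *MRPS6* and *MRPS25*, the members with the largest fall and the largest rise, held no match to any of the 3 motifs, which says only that these letters were not in those windows.

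Over the family, the ETS letters stood in 29 of the 69 windows, or 42% (exact binomial 95% interval 30.2% to 54.5%). The same letters stood in 10.7% of all 27305 RefSeq windows and in 18.8% of the windows of genes tested here. The YY1 letters stood in 13 member windows (18.8%, interval 10.4% to 30.1%), against 1.85% of all windows and 3.79% of those of tested genes. The NRF1 letters stood in 3 member windows (4.35%, interval 0.906% to 12.2%), against 2.1% and 3.56%. The ETS and YY1 letters can share the bases AAG, but they overlapped in 0 member windows. None of the 3 motifs stood in 30 of the 69 windows, and 0 windows held all 3. The medians of members with and without a motif lay close together. The median log2 fold change was -0.48 for the 29 members with the ETS letters (19 called lower, 3 higher) and -0.42 for the 40 without (27 lower, 1 higher). For YY1 it was -0.41 for the 13 members with the letters (9 lower, 1 higher) and -0.48 for the 56 without (37 lower, 3 higher). A match is a description of letters and not a measured binding site.

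Transcripts of the mitoribosome were on the whole less abundant in the enzalutamide-resistant line. In LN-35, 51 of the 78 members (65.4%) were called lower and 4 (5.13%) were called higher at a Benjamini-Hochberg adjusted p under 0.05 in edgeR's quasi-likelihood test, while 23 were not called. Among all 13744 tested genes, 35.5% were called lower and 36.4% higher. The median log2 fold change of the members was -0.43, a 1.35-fold lower level, with quartiles of -0.72 and -0.16, whereas the median over all tested genes was -0.01 with quartiles of -0.58 and 0.66. The estimate was below 0 for 68 members (87.2%), against 50.3% of all tested genes. Most of the falls were modest. In the test for a change beyond 1.5-fold, 17 members (21.8%) were called lower and 3 higher, beside 17.8% and 21.1% of all tested genes. Each of the 51 members called lower had both LN-35 values below both LNCaP values, and each of the 4 called higher had both above. With 2 libraries per group, a call by adjusted p favours such separation, so it adds no support to the calls. No share over all called genes is given here for comparison. The members not called ranged from -0.26 (*MRPS18C*) to 0.29 (*MRPS31*) in log2 fold change. Within the repeats that share a number, the member median was -0.35 in repeat 1 and -0.50 in repeat 2. In bulk RNA of this kind, fewer cells of a type and less RNA per cell cannot be told apart.

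**Figure D1:**
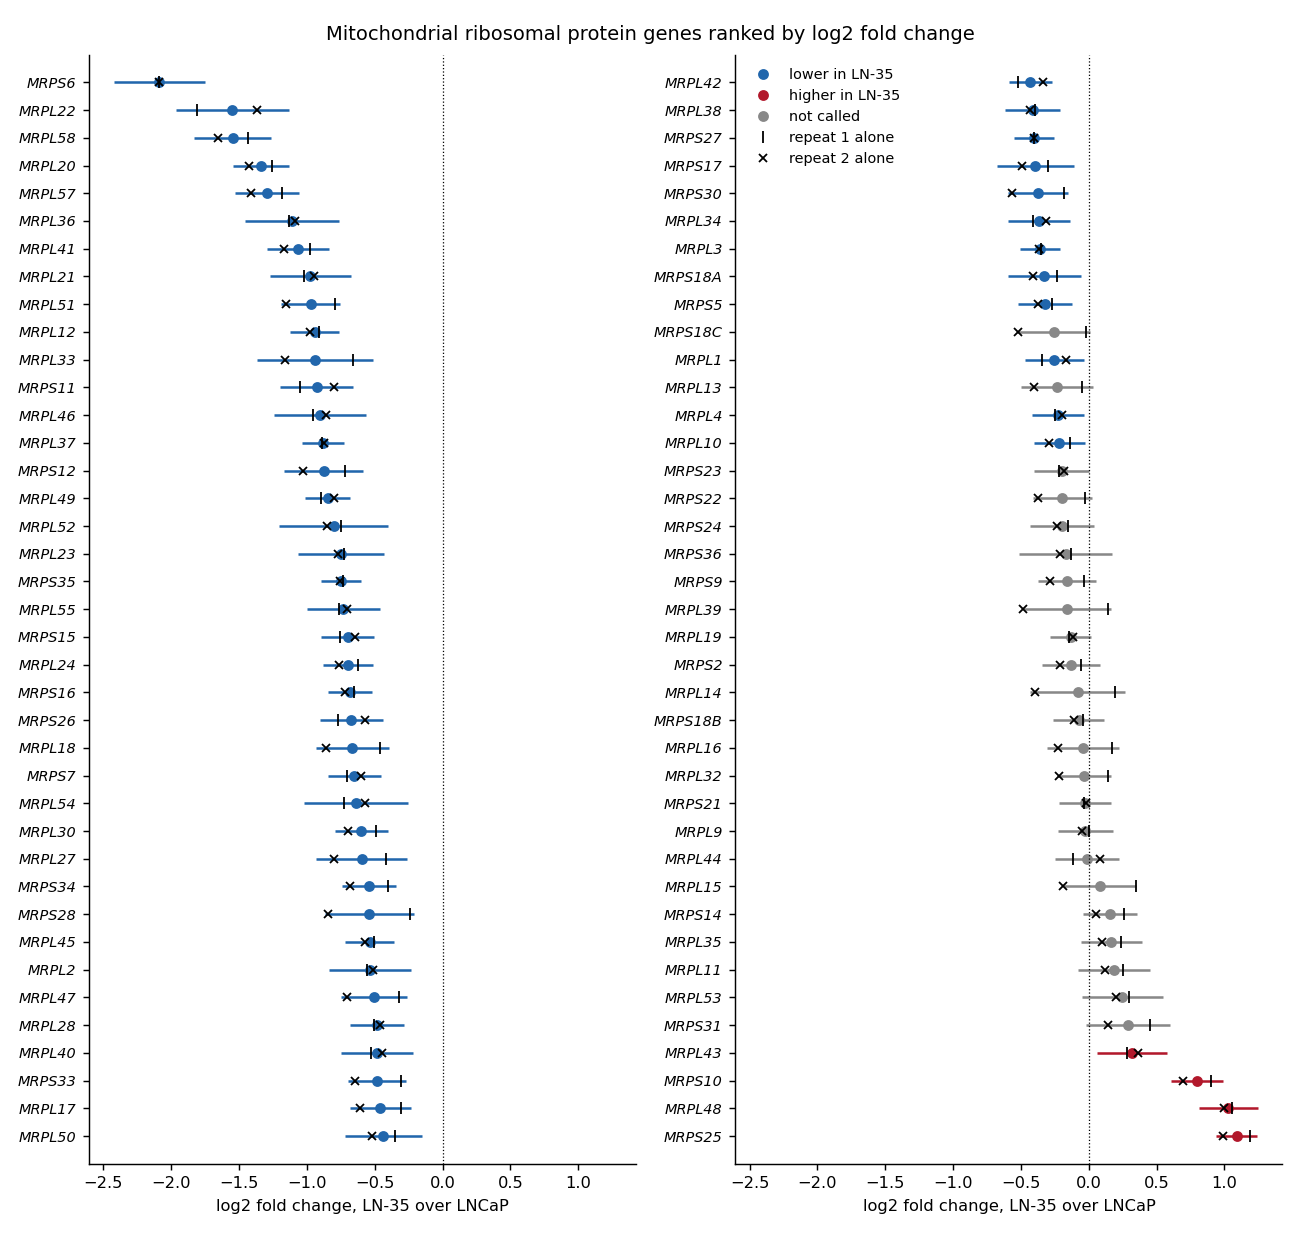
Log2 fold change of LN-35 over LNCaP for each of the 78 members, ranked from the largest fall (top left) to the largest rise (bottom right). Circles are edgeR estimates from 2 libraries per group with 95% intervals as bars, coloured by call, and black marks are the ratios within repeat 1 (upright) and repeat 2 (crosses). The estimates run from -2.09 for *MRPS6* to 1.09 for *MRPS25*, and 51 are called lower.

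The large subunit had the lower median of the 2 subunits. Of its 51 members, 37 were called lower and 2 higher, with a median log2 fold change of -0.48, a 1.4-fold lower level. Of the 26 small subunit members, 14 were called lower and 2 higher, with a median of -0.36, a 1.28-fold lower level. The difference between the subunits was not tested. By class of protein name, the median was -0.43 for the 46 members named with a bacterial homolog (30 lower, 1 higher). It was -0.44 for the 31 with names specific to mitochondria (21 lower, 3 higher). Summed over members, the family took 0.393% and 0.412% of all counts in the LNCaP libraries, falling to 0.307% and 0.293% in the LN-35 libraries, so both LN-35 libraries lay below both LNCaP libraries. The large subunit took 0.238% and 0.251% against 0.17% and 0.165%, and the small subunit 0.154% and 0.16% against 0.135% and 0.127%. Counts of the mitochondrially encoded proteins moved the other way and took 9.53% and 9.39% of the LNCaP libraries but 13.8% and 14.8% of the LN-35 libraries. With these left out of the total, the members' share in LN-35 was 0.787 of that in LNCaP, against 0.745 with them.

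**Figure D2:**
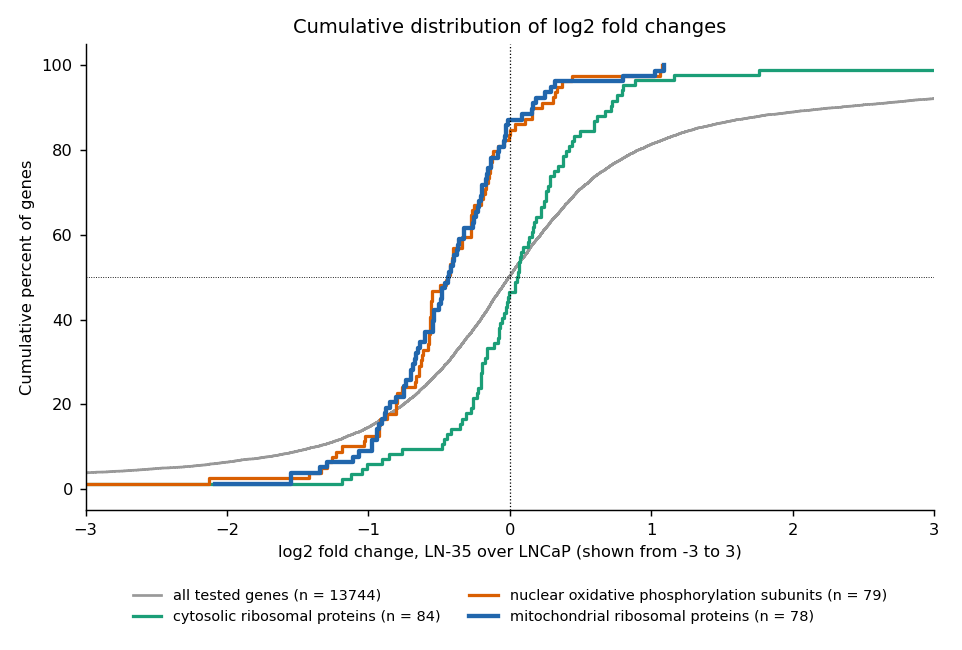
Cumulative percent of genes by log2 fold change of LN-35 over LNCaP, for all 13744 tested genes, 84 cytosolic ribosomal protein genes, 79 nuclear oxidative phosphorylation genes and the 78 members. The curves of the members and of the oxidative phosphorylation genes lie to the left of the other curves around the middle of the axis, crossing 50% at -0.43 and -0.44, while the curve of all tested genes crosses at -0.01.

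The cytosolic ribosomal proteins, which build the ribosome that translates nuclear transcripts, gave a different picture. Of their 84 tested genes, 32 were called higher (38.1%) and 23 lower (27.4%), with a median log2 fold change of 0.05. The median differed in sign between the repeats, at 0.16 within repeat 1 and -0.08 within repeat 2. Among all tested genes, 36.4% were called higher and 35.5% lower. The nuclear subunits of oxidative phosphorylation belong mostly to complexes that receive products of the mitoribosome. The exceptions are the SDH subunits, whose complex receives none. Among the 79 tested genes of this set, 8 were called higher (10.1%) and 53 lower (67.1%), with a median of -0.44. The differences between families were not tested.

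The largest fall among the members was that of *MRPS6* (bS6m, a small subunit protein with a bacterial homolog). It was at 25.5 and 25.7 CPM (counts per 1e6 counts, scaled with TMM factors) in the LNCaP libraries and at 6 and 6.04 CPM in the LN-35 libraries. The groups were far apart and the replicates nearly equal, with a 4.25-fold lower level in LN-35 (log2 fold change -2.09, SE 0.16, edgeR adjusted p = 4.73e-11). The gene lies at chr21:34073224-34143034 on the plus strand (GENCODE 29, GRCh38), and *SLC5A3*, which encodes a sodium-dependent myo-inositol transporter, lies within it on the same strand and shares 273 exon bases, 6.35% of the *MRPS6* exons. *SLC5A3* was at 111 and 90.5 CPM in LNCaP and 26.2 and 27.2 CPM in LN-35, with a log2 fold change of -1.92. The reads in the shared bases cannot be told apart between the 2 genes.

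*MRPL22* and *MRPL58* came next. *MRPL22* (uL22m), whose bacterial counterpart lines the tunnel through which the new peptide leaves, was at 16.3 and 18.9 CPM in LNCaP and 4.66 and 7.32 CPM in LN-35, 2.93-fold lower (log2 fold change -1.55, SE 0.20, edgeR adjusted p = 3.45e-07). The LN-35 replicates of this weakly expressed gene differed from each other, but both lay well below LNCaP. *MRPL58* (mL62, also called ICT1), a peptidyl-tRNA hydrolase that can release peptides from stalled ribosomes and is also built into the large subunit, was at 32.6 and 38.1 CPM in LNCaP and 12.1 and 12.1 CPM in LN-35. It was 2.92-fold lower (log2 fold change -1.55, SE 0.14, edgeR adjusted p = 4.75e-10), and the groups did not overlap.

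The remaining members with the largest falls all belonged to the large subunit. *MRPL20* (bL20m), whose bacterial counterpart binds the ribosomal RNA early in assembly, was at 63 and 67 CPM in LNCaP and 26.4 and 24.9 CPM in LN-35 (2.53-fold lower, log2 fold change -1.34, SE 0.10). *MRPL57* (mL63), found only in mitochondrial ribosomes, was at 59.7 and 55.1 CPM against 26.2 and 20.7 CPM (2.45-fold lower, -1.29, SE 0.11). *MRPL36* (bL36m), a very small protein, was at 17.3 and 17.5 CPM against 7.91 and 8.21 CPM (2.16-fold lower, -1.11, SE 0.17). In each of these 3 genes the lower LNCaP value exceeded the higher LN-35 value by a wide margin. *MRPL41* (mL41) was at 50.8 and 49.2 CPM against 25.8 and 21.9 CPM (2.1-fold lower, -1.07, SE 0.11). *MRPL21* (bL21m) was at 28.9 and 35 CPM against 14.2 and 18.2 CPM (1.96-fold lower, -0.97, SE 0.14). The groups of both were separate, and the edgeR adjusted p of the 5 genes lay between 2.45e-11 for *MRPL20* and 3.05e-06 for *MRPL36*.

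The 4 members called higher came from both subunits. *MRPS25* (mS25, a mitochondria-specific protein of the small subunit) was at 124 and 131 CPM in LNCaP and 282 and 259 CPM in LN-35, a 2.13-fold rise (log2 fold change 1.09, SE 0.07, edgeR adjusted p = 2.76e-12). The gene lies at chr3:15042460-15065335 on the minus strand, and 1197 of its exon bases (22.2%) are also exon bases of *NR2C2*, a nuclear receptor gene on the opposite strand that rose by 0.59 in log2 fold change. No use of strand is stated for the counting, so reads there cannot be assigned to either gene, and the part of *NR2C2* in the *MRPS25* value was not tested. *MRPL48* (mL48, in the central protuberance of the large subunit) was at 25.2 and 24.6 CPM in LNCaP and 52.4 and 49.2 CPM in LN-35, a 2.04-fold rise (log2 fold change 1.03, SE 0.10, edgeR adjusted p = 5.74e-09). *MRPS10* (uS10m), with a bacterial homolog, was at 38.8 and 41.6 CPM and rose to 72.6 and 67.2 CPM, by 1.74-fold (0.80, SE 0.09, edgeR adjusted p = 5.16e-08). The groups of these 3 genes were well separated. *MRPL43* (mL43) was at 21.4 and 21.1 CPM in LNCaP and 26 and 27.1 CPM in LN-35, a 1.25-fold difference (log2 fold change 0.32, SE 0.12, edgeR adjusted p = 0.0256). The *MRPL43* groups did not overlap, but the call was lost without any single library, with adjusted p from 0.0533 without LN-35 replicate 1 to 0.126 without LN-35 replicate 2. It shares 1170 exon bases (32.7%) with *SEMA4G* on the opposite strand, which was at 10.3 and 9.25 CPM in LNCaP and at 17.8 and 15 CPM in LN-35.

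**Figure D3:**
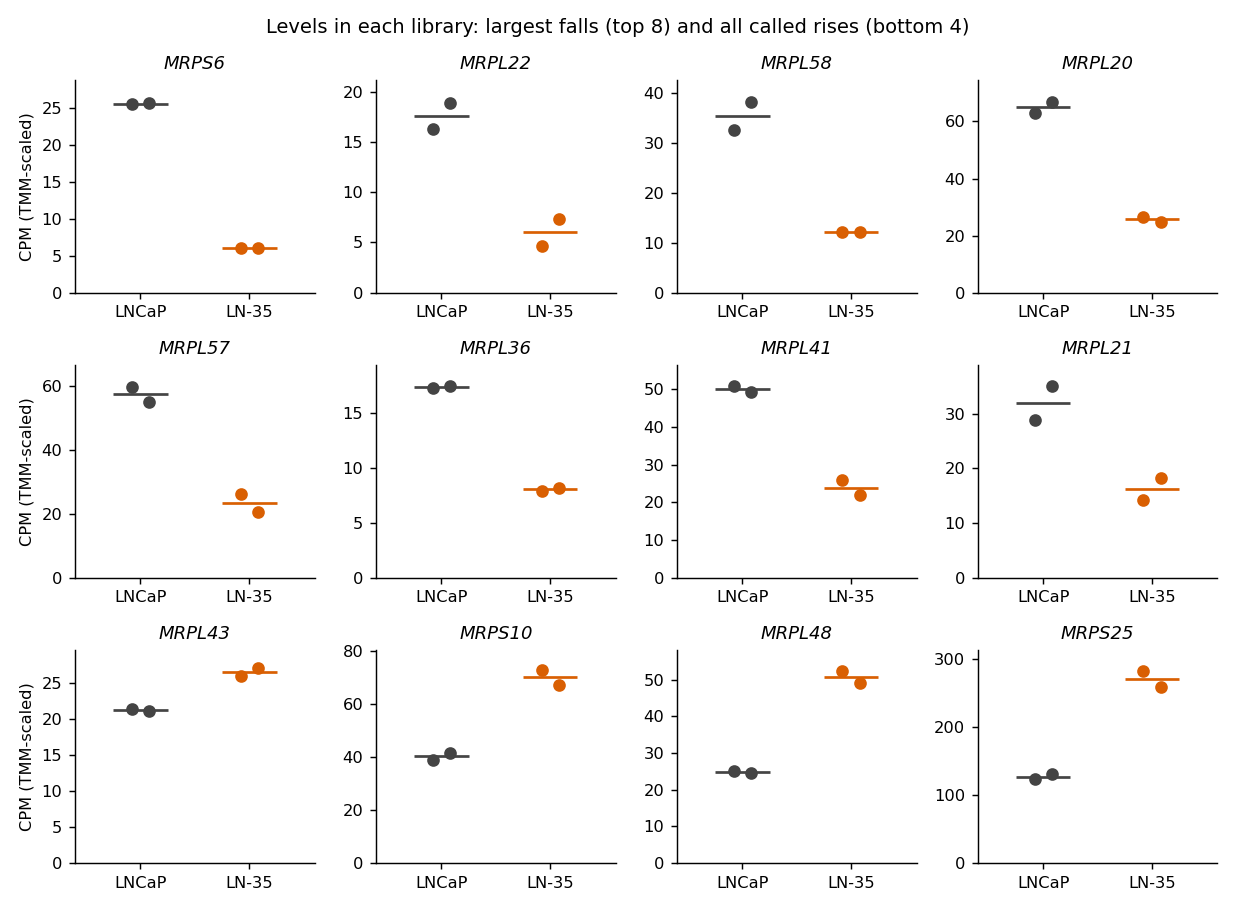
TMM-scaled CPM (linear axes from 0) of the 8 members with the largest falls and of the 4 members called higher, 1 point per library and a line at each group mean of 2 libraries. The groups do not overlap in any panel, and the *MRPL43* groups, at 21.4 and 21.1 CPM against 26 and 27.1 CPM, lie closest together.

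Levels between genes were compared as CPM per kilobase of annotated exons. On that scale the members spanned 2.68 to 98.4 CPM per kb in LNCaP, with a median of 16.3, and 1.14 to 58.6 CPM per kb in LN-35, with a median of 12.5. *MRPS35* (mS35) was highest in both lines, at 98.4 CPM per kb in LNCaP and 58.6 CPM per kb in LN-35. Its levels were 199 and 191 CPM against 119 and 113 CPM (log2 fold change -0.75, SE 0.07, edgeR adjusted p = 2.1e-09). *MRPL12* (bL12m), the protein of the flexible stalk that recruits translation factors and is also known to bind the mitochondrial RNA polymerase, followed in LNCaP at 78.1 CPM per kb and was at 40.7 in LN-35. *MRPL12* was at 79.1 and 81.5 CPM in LNCaP and 42.1 and 41.4 CPM in LN-35 (-0.94, SE 0.09, edgeR adjusted p = 1.39e-09). A read-through gene model shares 701 of the *MRPL12* exon bases (68.2%), and it held 0 counts in 3 libraries and 89.82 estimated counts in LN-35 replicate 2, or 7.24 CPM. *MRPL3* (uL3m), near the catalytic centre of the large subunit in bacteria, had 55.6 and 43.2 CPM per kb and went from 152 and 150 CPM to 119 and 116 CPM (-0.36, SE 0.07, edgeR adjusted p = 8.45e-05). *MRPS25*, which rose, reached 50.3 CPM per kb in LN-35 from 23.6 in LNCaP. The lowest levels per kb, averaged over libraries, were those of *MRPL46* (2.68 and 1.43), *MRPL22* (3.35 and 1.14) and *MRPS6* (5.95 and 1.4). Exon lengths include every annotated isoform, so genes with long rarely used exons appear lower on this scale. The order of the members was largely kept, with Spearman's rho of 0.854 and Pearson's r of 0.865 between log2 CPM in LNCaP and in LN-35 over the 78 members, which share the same libraries.

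The members were also read by their place in the ribosome, in groups drawn up after the values had been seen. The groups do not list every protein of a structure. Their counts stand beside the 65.4% of all members and 35.5% of all tested genes called lower. At the mouth of the exit tunnel, where the new protein emerges towards the inner membrane, the 6 members listed were all called lower. They were *MRPL17*, *MRPL22*, *MRPL23*, *MRPL24*, *MRPL45* and *MRPL47*, with log2 fold changes from -1.55 to -0.46. *MRPL45* (mL45), which tethers the ribosome to the inner membrane, was at 70.7 and 75.9 CPM in LNCaP and 49.9 and 51 CPM in LN-35 (-0.54, SE 0.09, edgeR adjusted p = 8.7e-06), and its groups did not overlap. In the central protuberance, *MRPL38*, *MRPL40* and *MRPL46* were called lower, at -0.41, -0.48 and -0.90, and *MRPL48* was called higher, at 1.03. In the stalk, *MRPL12* was called lower at -0.94. Its anchor *MRPL10* was at 56.8 and 57.4 CPM in LNCaP and 51.5 and 46.8 CPM in LN-35 (-0.22, edgeR adjusted p = 0.0404), but this call was lost without any single library, with adjusted p from 0.05 without LN-35 replicate 1 to 0.314 without LN-35 replicate 2. *MRPL11*, at the stalk base, was not called, at 0.19 (95% interval -0.08 to 0.45). Among the 4 members listed for the central protuberance, transcripts for proteins of the same structure did not all move the same way.

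The 3 paralogs of bacterial protein S18 occupy different places in the mitoribosome. *MRPS18A* (mL66), in the large subunit, was at 24.6 and 27.2 CPM in LNCaP and 20.8 and 20.4 CPM in LN-35 (log2 fold change -0.33, SE 0.13, edgeR adjusted p = 0.0265). This call was lost without LNCaP replicate 2 (adjusted p = 0.131), without LN-35 replicate 1 (0.0832) and without LN-35 replicate 2 (0.105). *MRPS18B* (mS40), in the small subunit, was at 58.8 and 56.3 CPM against 57.1 and 52.3 CPM, and its groups overlapped (-0.07, 95% interval -0.26 to 0.11, adjusted p = 0.468). *MRPS18C* (bS18m), the small subunit paralog that takes the bacterial position, was at 29.6 and 32 CPM against 29.2 and 22.3 CPM (-0.26, interval -0.53 to 0.01, adjusted p = 0.0769). Without LN-35 replicate 1 it was called lower at -0.46 (edgeR adjusted p = 0.00897). Its exons share 1956 bases (40.2%) with *ABRAXAS1* on the opposite strand, which rose by 1.42 in log2 fold change. *MRPS36*, the member outside the mitoribosome, was at 12.9 and 13.4 CPM against 11.8 and 11.6 CPM (-0.17, interval -0.51 to 0.17, adjusted p = 0.366).

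The 5 subunits whose symbols do not follow the rule had 4 called lower (80%, beside 35.5% of all tested genes), 0 higher and a median log2 fold change of -0.74. *DAP3* (mS29), the GTP-binding protein of the small subunit first described as a death-associated protein, was at 226 and 232 CPM in LNCaP and 70.1 and 77.2 CPM in LN-35. This was a 3.11-fold lower level (log2 fold change -1.64, SE 0.08, edgeR adjusted p = 2.44e-15), exceeded in the family only by *MRPS6*. *AURKAIP1*, a small subunit protein, was at 60.3 and 61.8 CPM against 30.7 and 31.5 CPM (-0.97, edgeR adjusted p = 3.92e-09), and *CHCHD1*, in the same subunit, at 20.8 and 21.3 CPM against 14.6 and 10.6 CPM (-0.74, adjusted p = 0.000248). *GADD45GIP1*, a large subunit protein, was at 38.8 and 36.6 CPM against 30.8 and 26.2 CPM (-0.40, edgeR adjusted p = 0.00296), a call lost without LN-35 replicate 2 (-0.29). The groups of these 4 genes did not overlap. *PTCD3*, a pentatricopeptide repeat protein of the small subunit, was at 99.3 and 85.6 CPM against 89.6 and 92.7 CPM, with overlapping groups (-0.02, interval -0.19 to 0.15, adjusted p = 0.832). Over all 82 mitoribosome subunits, 55 were called lower and 4 higher, with a median of -0.45.

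Genes that build and serve the mitoribosome were called in both directions, and their shares stand beside the 35.5% of all tested genes called lower and the 36.4% called higher. Of 28 assembly and ribosomal RNA modification factors, 12 were called lower (42.9%) and 7 higher (25%), with a median log2 fold change of -0.21. *TRMT2B*, which methylates mitochondrial RNA, fell by 1.49 on the log2 scale (edgeR adjusted p = 1.23e-08), and the assembly GTPase *MTG2* by 0.98 (8.04e-08), whereas the GTPase *MTG1* rose by 0.68 (3.09e-05) and the helicase *DHX30* by 0.64 (4.24e-07). Of 14 translation factors, 6 were called lower (42.9%) and 2 higher (14.3%), with a median of -0.17. The elongation factor *GFM1* fell by 0.84 on the log2 scale and the recycling factor *GFM2* by 0.63, while *MRRF*, the ribosome recycling factor, rose by 0.71. *MTRF1L*, a release factor, was called higher at 0.33, and the call was lost without LNCaP replicate 2 (adjusted p = 0.0579) or LN-35 replicate 2 (0.115), which left 1 factor called higher. Of 20 mitochondrial aminoacyl-tRNA synthetases and related amidotransferase subunits, which charge tRNAs, 7 were called lower (35%, close to the share of all tested genes) and 4 higher (20%), with a median of -0.16. *NARS2* and *LARS2* fell by 0.86 and 0.65, and *RARS2* and *CARS2* rose by 1.26 and 0.64.

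Genes for mitochondrial transcription and RNA maturation were called lower in 11 of 17 cases (64.7%) and higher in 3 (17.6%), with a median log2 fold change of -0.38. *TFAM*, which packages mitochondrial DNA and starts its transcription, was at 97 and 89.8 CPM in LNCaP and 36 and 34.1 CPM in LN-35 (-1.41, SE 0.09, edgeR adjusted p = 1.45e-12). *ELAC2*, which trims the ends of mitochondrial tRNAs, fell by 0.93 (adjusted p = 2.36e-09). *POLRMT*, the mitochondrial RNA polymerase, and *PNPT1*, a ribonuclease, rose by 0.38 each (adjusted p = 0.00109 and 0.00138). Of the calls, that of *MTRES1* (-0.42, adjusted p = 0.0405) became 0.0516 with the replicate number as a block. The mitochondrially encoded proteins, the products that the mitoribosome makes, went in the other direction, with 10 of 13 transcripts called higher (76.9%) and 0 lower (median 0.63). The shares over all tested genes were 36.4% called higher and 35.5% called lower. *MT-CO2*, a subunit of cytochrome c oxidase, was at 6569 and 6633 CPM in LNCaP and 14875 and 15678 CPM in LN-35 (1.21, SE 0.08, edgeR adjusted p = 7.6e-13). *MT-ND6*, a subunit of complex I, was at 716 and 754 CPM against 1364 and 1540 CPM (0.98, adjusted p = 3.88e-11). Without LNCaP replicate 1, 1 of the 13 transcripts was called lower.

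**Figure D4:**
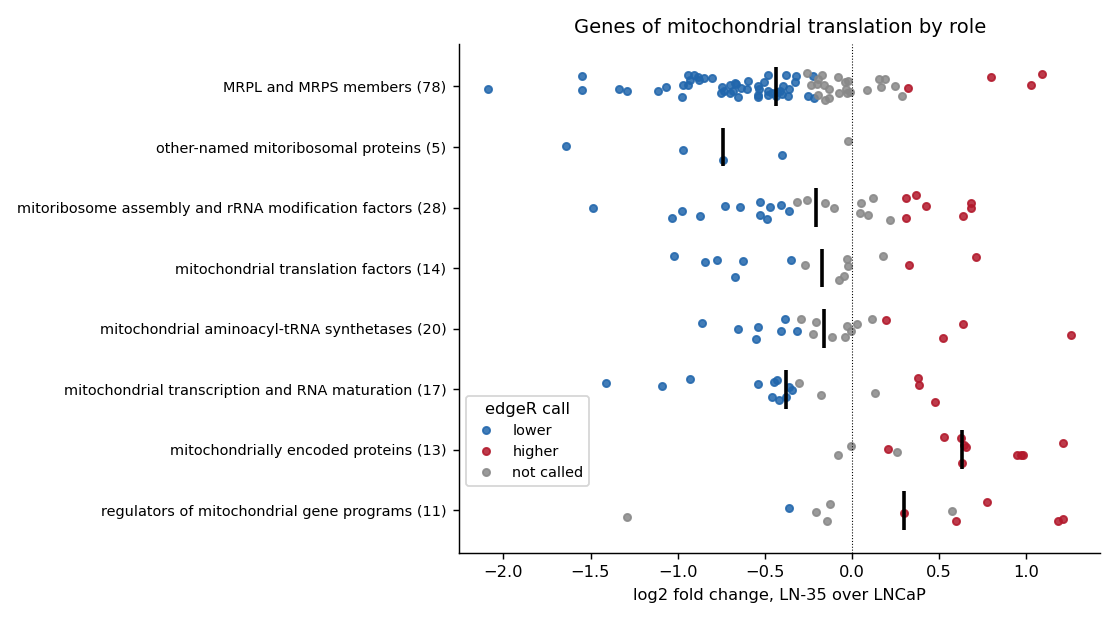
Log2 fold change of LN-35 over LNCaP for each tested gene of mitochondrial translation, in rows by role with the number of tested genes in brackets and a black line at the row's median. Points are coloured by edgeR call and spread vertically for legibility. The members (median -0.43) lie mostly to the left of 0 and the mitochondrially encoded proteins (median 0.63) mostly to the right.

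Regulators of nuclear genes for mitochondria, of which 11 were tested, were called higher in 5 cases (45.5%) and lower in 1 (9.09%). Their median log2 fold change was 0.30. The shares over all tested genes were 36.4% called higher and 35.5% called lower. GABPA belongs to the ETS family, whose letters in the windows above do not tell its factors apart. This DNA-binding subunit was at 50.1 and 49.8 CPM in LNCaP and 85.5 and 85.3 CPM in LN-35 (0.77, SE 0.08, edgeR adjusted p = 1.9e-08). Its partner *GABPB1* was at 23.7 and 27 CPM against 19.2 and 20.2 CPM (-0.36, adjusted p = 0.0169), a call lost without LNCaP replicate 2 (0.113) and without LN-35 replicate 1 (0.101). *PPARGC1B*, a coactivator of mitochondrial genes, was at 15.9 and 17.1 CPM against 36.6 and 39.5 CPM (1.21, adjusted p = 5.64e-09). YY1 was called higher at 0.30 (adjusted p = 0.00102), and NRF1 was at 52.3 and 45.5 CPM against 43.5 and 41.5 CPM (-0.20, adjusted p = 0.0706). The number of regulators called lower was 4 when libraries were scaled by their totals alone and 0 with DESeq2. These are transcript levels of the regulators, and their part in the levels of the members was not tested.

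The chromosomal surroundings of the members varied, with a median near 0 over the family. The 20 nearest tested genes that are not members, 10 on each side, had a median log2 fold change whose median over the 78 members was 0.02, and 36 members had neighbours with a median below 0. These medians ran from -0.75 for the neighbours of *MRPL37*, itself at -0.88, to 1.12 for those of *MRPL53*, itself at 0.25. The member was below its neighbours' median in 66 cases and above it in 12. *MRPL22*, at -1.55, stood among neighbours with a median of 0.28, and *MRPS6*, at -2.09, among neighbours at -0.60. *MRPS25* and *MRPL48*, both called higher, had neighbours at -0.53 and -0.43. Across members, the log2 fold change and the neighbours' median had a Pearson's r of 0.245 and a Spearman's rho of 0.283 over 78 members that share libraries and, in places, neighbours. On chromosome 19, where all tested genes had a median of 0.19, 4 of 4 members were called lower, from -0.88 for *MRPS12* to -0.23 for *MRPL4*. Other chromosomes with a median above 0 varied. On chromosome 22 (median 0.19) 1 of 1 member was called lower. On chromosomes 2 (0.07), 4 (0.045) and 8 (0.08), 3 of 8, 1 of 2 and 1 of 3 members were called lower and 0 higher. On chromosome 7 (median 0.47) 2 of 4 members were called lower. On chromosome 6 (median 0.19) 3 of 6 were called lower and 1 higher. The *MRPL4* call was lost without LNCaP replicate 1 (edgeR adjusted p = 0.0938), LN-35 replicate 1 (0.139) or LN-35 replicate 2 (0.127), and that of *MRPL54*, at -0.64, without LN-35 replicate 1 (0.0779).

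Of the 78 members, 27 had a gene on the opposite strand whose start lay within 1000 bases of their own, in a head-to-head arrangement listed after the values had been seen. The arrangement gave 28 pairings, with *MRPL46* and *MRPS11* listed from either side. In the 26 pairings with a gene that is not a member, the head-to-head gene was called lower in 11 (42.3%), higher in 7 (26.9%) and in neither direction in 8, beside 35.5% lower and 36.4% higher among all tested genes. Of the 17 of these pairings in which the member was called lower, 9 had both genes called lower. *MRPL46* (mL46) and *MRPS11* (uS11m), whose starts on chromosome 15 are 34 bases apart, had nearly the same change. *MRPL46* was at 17.3 and 17.2 CPM in LNCaP and 8.91 and 9.5 CPM in LN-35 (-0.90, SE 0.16, edgeR adjusted p = 3.36e-05), and *MRPS11* was at 34.8 and 30 CPM against 16.8 and 17.2 CPM (-0.93, SE 0.13, adjusted p = 9.23e-07). The groups of both were separate, and the printed *MRPL46* window covers the GENCODE start of *MRPS11* on the other strand. Another gene model on the strand of *MRPL46* shares 724 of its exon bases (11.3%). That model was at 0.381 and 1 CPM in LNCaP and 3.08 and 6.76 CPM in LN-35. Reads in the shared bases cannot be told apart, and the model's part in the *MRPL46* value was not tested. *MRPL36* and *NDUFS6*, a complex I subunit, changed by -1.11 and -1.03, and *MRPS12* and *SARS2*, the mitochondrial seryl-tRNA synthetase, by -0.88 and -0.54. *MRPL43* and *TWNK*, the mitochondrial DNA helicase, were both called higher, at 0.32 and 0.67. In 4 pairings the member was called lower and the head-to-head gene higher, namely *MRPL30* with *MITD1* (-0.60 and 0.55), *MRPL47* with *NDUFB5* (-0.50 and 0.31), *MRPL49* with *FAU* (-0.85 and 0.22) and *MRPS7* with *GGA3* (-0.65 and 0.29). Some of the named pairs share exon bases, namely *MRPS12* with *SARS2* (349), *MRPL43* with *TWNK* (149), *MRPL49* with *FAU* (282) and *MRPS7* with *GGA3* (213). With no use of strand stated, reads in these bases cannot be assigned to either gene.

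**Figure D5:**
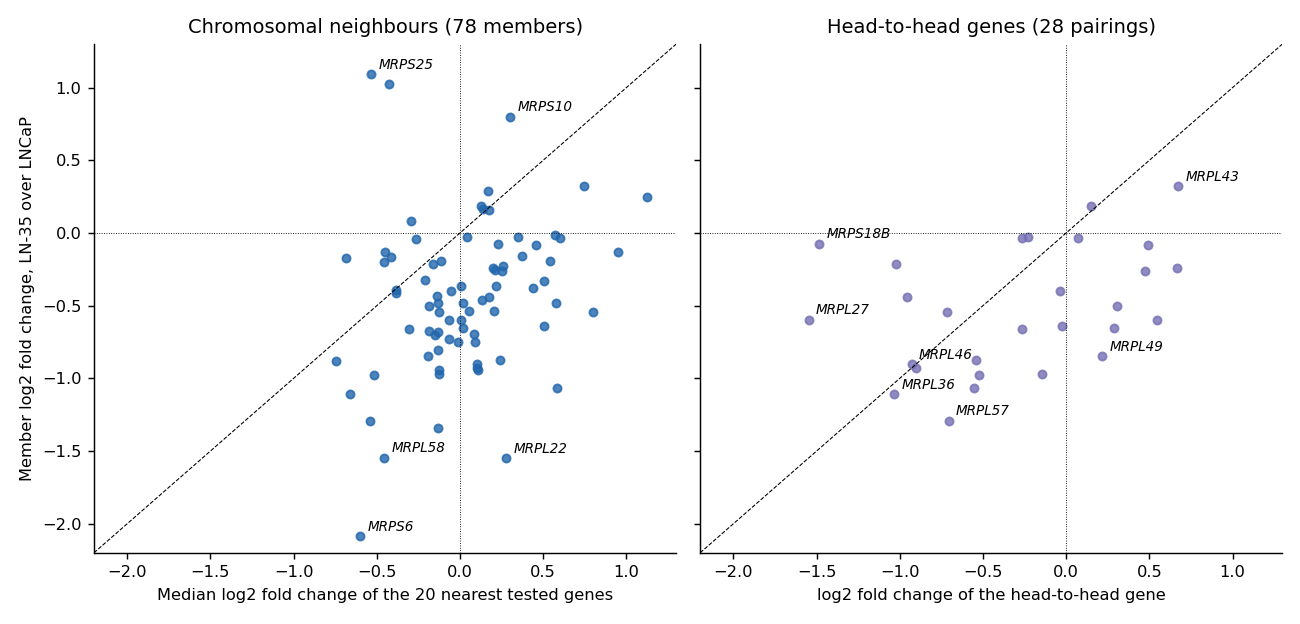
Log2 fold change of members (vertical axis, LN-35 over LNCaP) against the median of their 20 nearest tested genes (left, 78 members) and against their head-to-head gene (right, 28 pairings), with a dashed line of equality. On the left 66 points lie below the line, and on the right *MRPL36*, *MRPL46* and *MRPS11* lie close to it.

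Properties of the gene models and of the libraries were set beside these values. The 34 members with an annotated pseudogene, whose reads may be misplaced, had a median log2 fold change of -0.43 (22 lower, 2 higher), and the 44 without had -0.44 (29 lower, 2 higher). The 34 members that share exon bases with another gene of the table had -0.40 (21 lower, 2 higher), and the 44 that share none had -0.47 (30 lower, 2 higher). Across the 78 members, Pearson's r of the log2 fold change was -0.02 with the log2 LNCaP level and 0.08 with the log2 exon length. Prostate luminal markers were present in both lines, with 9 of 9 detected and summed levels of 4840 and 4726 CPM in LNCaP and 4384 and 4391 CPM in LN-35, within which *KLK3* went from 520 and 488 CPM to 6.33 and 5.96 CPM. Neuroendocrine markers summed to 60.5 and 55.8 CPM in LNCaP, with 4 of 7 detected, and to 323 and 306 CPM in LN-35, with 5 of 7. Their part in the members' levels was not tested. Fibroblast markers summed to 45.4 and 36.8 CPM in LNCaP and 47.3 and 44.9 CPM in LN-35, most of it *COL1A1* (44.4 and 35.6 against 37.2 and 30.5 CPM). The other 3 tested fibroblast markers were called higher in LN-35. *DCN* went from 0 and 0 CPM to 6.5 and 9.58 CPM, *COL3A1* from 0.317 and 0.43 CPM to 1 and 2.25 CPM, and *LUM* from 0.635 and 0.358 CPM to 2 and 2.41 CPM, and their part in the members' levels was not tested either. Leukocyte markers summed to between 9.75 and 12.7 CPM over the 4 libraries, with *CD3E* at 0 counts in each. Endothelial markers were at 5.65 and 6.67 CPM in LNCaP and 0.333 and 0.805 CPM in LN-35, with *CDH5* and *KDR* at 0 counts.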

How the data were processed

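RNA-seq was performed on 2 LNCaP and 2 LN-35 libraries, grouped by the labels. RNA extraction used TRIzol and library preparation the NEBNext Ultra kit, per the labels. The authors deposited 1 table of estimated counts per gene, not scaled between libraries. The submitters' notes list hg38, featureCounts 1.5.0-p3 and HISAT2 2.0.5. Between 11.5% and 12% of values in a library were not whole, for a reason that the sources used here do not state. If reads fitting several genes were divided, members with pseudogenes or overlapping genes are uncertain.

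Values were rounded before testing. Symbols were found for 20304 of 20332 identifiers, and positions and exons came from GENCODE 29 (GRCh38). Genes passing filterByExpr (minimum count 10) were compared with edgeR 4.0.16 in R 4.3.3 by the two-sided quasi-likelihood test (TMM, design ~ group), with Benjamini-Hochberg adjustment over 13744 genes. glmTreat tested for changes beyond 1.5-fold. The biological coefficient of variation was 6.67%. On counts simulated with that single value for every gene, 91.4% of 2-fold changes were recovered. Few genes were changed there, with as many rises as falls. Smaller changes, such as the members' median of 1.35-fold, were not simulated. Log2 fold changes are of LN-35 relative to LNCaP.

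The labels give repeat 1 and repeat 2 of each group under a batch tag. Deviations of same-numbered libraries correlated at -0.0152 across genes, and the block was kept as an alternative. The other alternatives were DESeq2 1.42.0, DESeq2 size factors, library totals alone, no filter and leaving out each library. The members, lists and rule for named genes were chosen with earlier results of these data known. Named members were up to 8 rises and 8 falls with a mean of at least 10 CPM, the 3 highest and 3 lowest per kb, members with a known role, the subunits named otherwise, and up to 2 called genes per direction in each list by adjusted p.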

Additional observations from a re-analysis of the deposited data

How the results depend on the processing

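No member called in the main comparison changed sign under any of the 9 alternatives, and 70 of 78 members kept their sign in all of them. Of the 55 called members, 42 kept the call throughout (39 lower, 3 higher). The number called lower was 49 with DESeq2 size factors, 58 with library totals alone, 52 without the filter and 44 with DESeq2, against 51, and the number called higher was 3 to 5, against 4. Leaving out 1 library gave 43 to 49 lower, 3 to 5 higher and a median log2 fold change from -0.51 to -0.38. With library totals alone the median of all genes moved from -0.01 to -0.08 and that of the members to -0.51. With the replicate block, 51 members were called lower and 4 higher, and no member's call changed; among the list genes named in the text, the call of MTRES1 was lost. Requiring a change beyond 1.5-fold left 17 members called lower. The shorter ETS letters CCGGAA stood in 56.5% of member windows, against 17.6% of all windows and 29.1% of those of tested genes. With 5 neighbours on each side the median over members was 0.03. Mean LNCaP levels of the members ran from 13.2 to 195 CPM, and with 2 libraries per group the intervals were widest for weakly expressed members such as MRPL22 and MRPL33.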
